A study of Mus musculus with 28 samples.

Results

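The genes described here encode the interleukin-1 (IL-1) family cytokines that macrophages make and the proteins that restrain them. They are the 3 ligand genes Il1a, Il1b and Il18, the gene of the IL-1 receptor antagonist (Il1rn), the gene of the IL-18 binding protein (Il18bp), the gene of the IL-1 receptor accessory protein (Il1rap) and the gene of the decoy receptor (Il1r2). These 7 genes were chosen by name from a table of read counts for 54532 Ensembl genes, of which 30159 had at least 1 count in any culture. Each symbol matched a single identifier in the GRCm38 annotation of GENCODE M21.

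RNA was sequenced from 28 cultures of murine bone marrow-derived macrophages (BMDMs), which are macrophages grown from marrow cells with the growth factor M-CSF. The study asked how von Willebrand factor (VWF), the plasma glycoprotein that tethers platelets to injured vessel walls, changes gene expression in these cells. Human VWF purified from plasma was given at 10 µg/ml and bacterial lipopolysaccharide (LPS), a standard stimulus of macrophages, at 100 ng/ml, and control cultures received PBS. Cells were collected after 3.5 h or 16 h. At each time there were 5 control, 5 VWF-treated and 4 LPS-treated cultures, all in fresh medium with 1 mM CaCl2, and no genetic change is given for any group. The methods of the study give marrow of C57/B6JB mice (spelled so) aged 8 to 12 weeks, with no sex for these cultures. Their opening statement gives a younger age range for all murine experiments, so that the age is not settled. The labels call the replicates biological without tying them to animals, so that p values here measure the spread between cultures, which may be technical.

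IL-1α and IL-1β act through the same receptor, which needs the accessory protein to signal through MyD88, and IL-18 acts through a related receptor pair. IL-1β and IL-18 are made as inactive precursors that caspase-1 cleaves once an inflammasome has assembled, so that the amount of mRNA does not tell how much active cytokine a cell releases. The family is held in check outside the cell: the receptor antagonist occupies the IL-1 receptor without signaling, the decoy receptor binds IL-1 without signaling, and the IL-18 binding protein captures IL-18. Macrophages are a main source of IL-1β after stimulation through Toll-like receptors.

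Total counts per culture lay between 41131209 and 77699206. Levels of a gene are given as CPM (counts relative to library size, scaled by TMM factors over all 28 cultures), and levels of different genes are compared in TPM (which also divides by exon length). The labelled cell type was in accord with its markers: the 8 macrophage markers summed to between 5862 and 26060 CPM, with all 8 detected in each group, whereas the T cell, B cell, NK cell and mast cell lists stayed at or under 8.66 CPM in every culture and the fibroblast list between 17.6 and 407 CPM. Replicate 5 of the control cultures at 16 h stood apart, with the lowest macrophage sum and a mean correlation of 0.910 with its group, and replicate 4 of the LPS-treated cultures at 16 h had a correlation of 0.946, against 0.969 to 0.988 for the other 26 cultures. The fold changes that include either culture are given a second time without it, after the comparisons.

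Promoters are shown for the members whose levels changed most, to set the ligand genes beside the antagonist genes. The table of RefSeq promoters (GRCm38.p6, 250 bases before to 50 bases after each start) held all 7 members, with 3 starts for Il1rn. Capitals mark matches to the searched motifs in 4 promoters, written 5′ to 3′ on the strand of the gene.
Il1a, chr2:129309923-129310222, minus strand: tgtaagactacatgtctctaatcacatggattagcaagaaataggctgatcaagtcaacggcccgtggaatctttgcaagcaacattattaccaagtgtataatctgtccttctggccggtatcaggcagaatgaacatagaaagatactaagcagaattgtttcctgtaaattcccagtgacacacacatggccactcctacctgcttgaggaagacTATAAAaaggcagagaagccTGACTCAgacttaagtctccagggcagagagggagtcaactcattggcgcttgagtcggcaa
Il1b, chr2:129371090-129371389, minus strand: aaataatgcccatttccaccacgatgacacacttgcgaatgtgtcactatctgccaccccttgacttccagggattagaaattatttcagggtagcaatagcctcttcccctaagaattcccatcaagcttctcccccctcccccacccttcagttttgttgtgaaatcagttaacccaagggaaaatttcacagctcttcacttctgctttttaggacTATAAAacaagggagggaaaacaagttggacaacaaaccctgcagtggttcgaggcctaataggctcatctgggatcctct
Il1rn, chr2:24336610-24336909, plus strand, first of the 3 starts: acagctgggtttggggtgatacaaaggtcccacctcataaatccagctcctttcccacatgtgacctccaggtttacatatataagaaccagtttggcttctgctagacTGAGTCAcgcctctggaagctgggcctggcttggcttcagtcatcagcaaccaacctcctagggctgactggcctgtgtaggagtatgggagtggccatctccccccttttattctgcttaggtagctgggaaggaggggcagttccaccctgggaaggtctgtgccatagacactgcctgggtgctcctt
Il18bp, chr7:102018183-102018482, minus strand: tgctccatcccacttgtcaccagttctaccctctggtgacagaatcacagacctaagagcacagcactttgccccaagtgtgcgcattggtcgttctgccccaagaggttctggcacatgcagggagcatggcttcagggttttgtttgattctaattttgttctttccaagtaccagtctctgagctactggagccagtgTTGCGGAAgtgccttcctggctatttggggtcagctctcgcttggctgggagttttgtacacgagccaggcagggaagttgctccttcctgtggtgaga

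Both IL-1 ligand genes carried the TATA box letters TATAAA close before the start, from base −32 to −27 in Il1a and from −31 to −26 in Il1b. TATAAA on either strand was found in 13.6% of all 32851 promoters of the table and was added to the search after the sequences had been read. The AP-1 letters TGANTCA, present in 7.81% of promoters, occurred in Il1a from −12 to −6 as TGACTCA and in the first Il1rn promoter from −141 to −135 as TGAGTCA. Il18bp held the C/EBP letters TTGCNNAA, present in 10.8% of promoters, from −49 to −42. Of the promoters not shown, those of Il18 and the third start of Il1rn had TATAAA on the opposite strand, and that of the second Il1rn start had no match. Il1rap had the ISRE letters GAAANNGAAA (3.44% of promoters) and Il1r2 the GAS letters TTCNNNGAA (8.3% of promoters). Which of its starts Il1rn used in these cultures cannot be told from counts per gene. The NF-κB consensus, present in 4.51% of promoters, was not matched in these windows of the members. Both strands were searched, no 2 matches overlapped, and a match is a description of letters and not of a bound factor.

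Among the ligand genes, Il1a (ENSMUSG00000027399) lies on chromosome 2 of GRCm38 from 129299610 to 129309972 on the minus strand. It was close to absent in control cultures at 3.5 h, with 0.651, 0.660, 0.383, 0.870 and 0.355 CPM in replicates 1 to 5. After 3.5 h of VWF the 5 cultures held 179, 211, 251, 271 and 295 CPM, and after 3.5 h of LPS the 4 cultures held 262, 509.7, 591 and 523 CPM. All treated cultures thus lay far above all controls, while the VWF and LPS groups overlapped through replicate 1 of the LPS-treated cultures. Controls at 16 h had 0.148, 0.505, 0.171, 2.07 and 0 CPM, where the 0 of replicate 5 allows a level of up to 0.0580 CPM (3 counts, counting error only) and replicate 4 was far above the others. The VWF-treated cultures at 16 h had 2.31, 2.22, 3.34, 2.01 and 1.08 CPM and the LPS-treated cultures 291, 195, 280.1 and 110.2 CPM. VWF-treated cultures had thus come down to a range that overlapped with the controls at 16 h through control replicate 4 alone. They lay above the other controls, and LPS-treated cultures stayed far above all controls. Of the exon length of Il1a, 11.2% overlaps Gm14023 on the opposite strand, which had at most 246 counts in any culture, and the strand setting of the counting is not given.

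Il1b (ENSMUSG00000027398), which encodes the main secreted IL-1 of macrophages, lies on chromosome 2 from 129364570 to 129371139 on the minus strand. The control cultures held 0.757, 1.05, 0.874, 1.45 and 0.459 CPM at 3.5 h. With VWF the values were 687, 983, 1588, 1398 and 1043 CPM, and with LPS they were 949, 1091, 1634 and 1591 CPM. The ranges of VWF and LPS at 3.5 h overlapped, and neither came near the controls. Later, at 16 h, controls held 0.984, 1.65, 1.83, 6.71 and 2.11 CPM, again with replicate 4 highest. The VWF-treated cultures at 16 h held 16.5, 14.3, 18.5, 15.4 and 8.27 CPM and the LPS-treated cultures 1159, 1049, 1019.5 and 1414 CPM. All VWF-treated cultures at 16 h were above all controls and below all LPS-treated cultures. Only 1.31% of the exon length of Il1b overlaps the antisense gene Il1bos, which had at most 100 counts.

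Il18 (ENSMUSG00000039217, chromosome 9 from 50554827 to 50581840, plus strand) was already transcribed in controls, with 11.4, 11.01, 10.5, 6.36 and 8.62 CPM at 3.5 h. VWF gave 15.1, 18.9, 19.9, 26.5 and 16.9 CPM and LPS 56.3, 52.7, 60.4 and 75.5 CPM. The 3 groups at 3.5 h did not overlap, in the order control, VWF, LPS. At 16 h the controls had 10.5, 10.99, 12.98, 10.8 and 14.97 CPM, the VWF-treated cultures 11.6, 11.8, 8.45, 12.4 and 8.93 CPM and the LPS-treated cultures 72.9, 82.03, 61.9 and 94.6 CPM. Control and VWF cultures overlapped at 16 h, and each LPS-treated culture was higher than all of them.

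The antagonist gene Il1rn (ENSMUSG00000026981, chromosome 2 from 24336853 to 24351494, plus strand) had high levels in unstimulated macrophages, 523, 716, 650.4, 757 and 671 CPM at 3.5 h. The VWF-treated cultures held 695, 902, 1097, 1193 and 1022 CPM and the LPS-treated cultures 2582, 3059, 3171 and 3583 CPM at this time. VWF and control cultures overlapped at 3.5 h, with replicate 1 of each the lowest. At 16 h the controls held 951, 827, 447, 666 and 674 CPM and the VWF-treated cultures 268, 248, 257, 342 and 142 CPM. In LPS-treated cultures at 16 h Il1rn reached 12699.7, 13311, 11025 and 15136 CPM. The VWF-treated cultures at 16 h were all below the controls, whereas the LPS-treated cultures were all above every other culture of the series.

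Il18bp (ENSMUSG00000070427, chromosome 7 from 102014885 to 102018690, minus strand), whose product binds IL-18 in the medium, had 9.21, 11.6, 7.28, 9.25 and 9.95 CPM in controls at 3.5 h. At this time VWF-treated cultures had 13.4, 19.2, 17.3, 19.9 and 16.2 CPM and LPS-treated cultures 31.5, 34.8, 37.5 and 36.8 CPM. Controls at 16 h had 5.54, 5.79, 5.46, 6.14 and 3.33 CPM, with replicate 5 the lowest. The VWF-treated cultures then had 27.8, 32.5, 34.5, 43.2 and 22.3 CPM and the LPS-treated cultures 246, 271, 237 and 212 CPM. Control, VWF and LPS cultures were separate at both times, and Il18bp was the only member whose mean level rose with VWF between 3.5 h and 16 h. Il18bp shares 2.64% of its exon length with Numa1 on the opposite strand.

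Il1rap (ENSMUSG00000022514, chromosome 16 from 26581704 to 26730117, plus strand), the signaling partner of the IL-1 receptor, stayed under 10 TPM in all 28 cultures, with a maximum of 9.29 TPM. In controls at 3.5 h it had 20.6, 23.6, 14.9, 29.3 and 21.7 CPM, against 10.3, 9.79, 8.93, 9.94 and 13.5 CPM with VWF and 21.7, 33.5, 25.4 and 30.2 CPM with LPS. Every VWF-treated culture was thus below every control and LPS-treated culture at 3.5 h. The later controls had 10.6, 13.2, 8.01, 9.87 and 3.56 CPM, the VWF-treated cultures 7.28, 6.99, 7.61, 6.14 and 6.33 CPM and the LPS-treated cultures 9.29, 8.58, 7.96 and 5.07 CPM at 16 h, and the 3 groups overlapped. The antisense gene Gm20319, which overlaps 4.86% of its exon length, had at most 5 counts.

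The decoy receptor gene Il1r2 (ENSMUSG00000026073, chromosome 1 from 40074079 to 40125231, plus strand) had 296 counts over all 28 cultures together, with at most 0.852 TPM. LPS-treated cultures at 16 h held 33, 28, 22 and 22 counts, and no other culture held more than 20. VWF-treated cultures at 16 h held 6, 2, 2, 3 and 1 counts and controls 14, 8, 0, 12 and 0. Each LPS-treated culture at 16 h was above every culture of the other 5 groups in CPM. Neutrophils are known to carry much of this decoy receptor. The 10 neutrophil markers summed to between 10.2 and 40.4 CPM, and Ly6g was at 0 in 4 of the 6 groups.

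**Figure D1:**
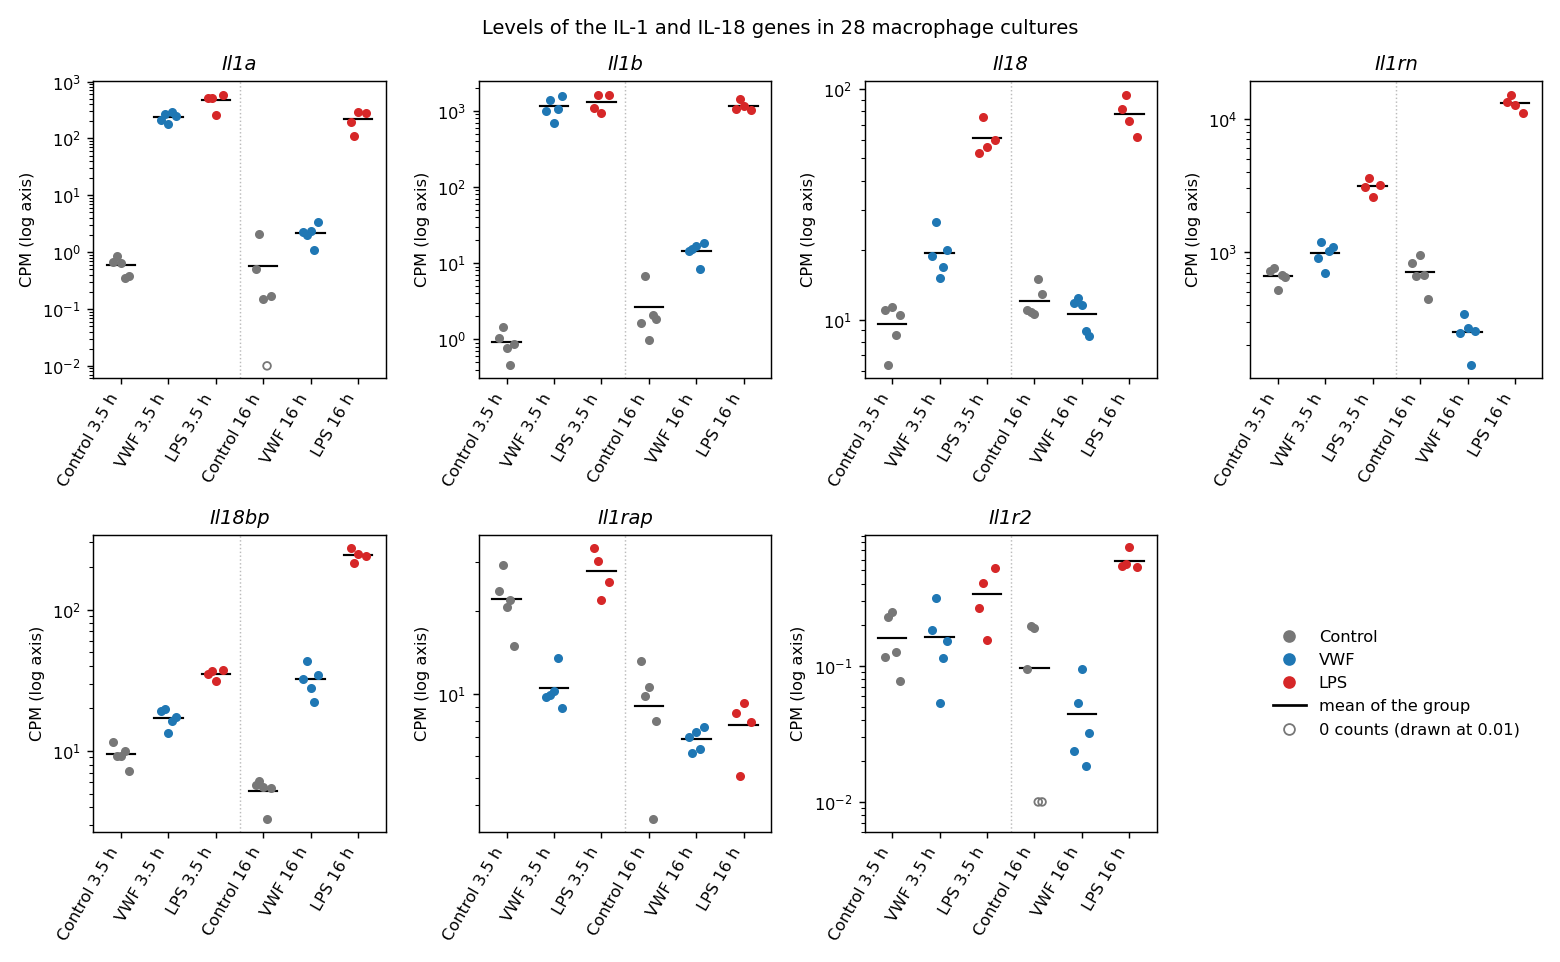
CPM (log axis) of the 7 genes in each of 28 cultures by group, with points for cultures, lines for group means and open points for 0 counts, drawn at 0.01. Il1a and Il1b fell from means of 242 and 1139.7 CPM with VWF at 3.5 h to 2.19 and 14.6 CPM at 16 h, while Il1rn in LPS-treated cultures rose to a mean of 13043 CPM.

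A list of 5 dendritic cell markers moved with the stimuli. Its summed level was 1.35 to 1.90 CPM in controls at 3.5 h, 13.7 to 19.3 CPM with VWF and 21.98 to 27.3 CPM with LPS at this time. At 16 h it was 0.768 to 2.09 CPM in controls, 1.15 to 4.28 CPM with VWF and 19.1 to 39.5 CPM with LPS. All 5 markers were detected, and the rise was carried by Xcr1 and, with LPS at 16 h, by Ccr7, while Flt3 had at most 8 and Siglech at most 20 counts in any culture. The part of such cells in the levels of Il1a and Il1b was not tested. The macrophage markers summed to 18739 to 26060 CPM with VWF at 16 h, against 5862 to 17313 CPM in controls of that time.

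Within 3.5 h, VWF raised the 3 ligand genes. Il1b rose from 0.917 ± 0.365 CPM (SD, n = 5) to 1139.7 ± 356 CPM (SD, n = 5), and Il1a from 0.584 ± 0.215 CPM to 242 ± 46.5 CPM. Il18 rose far less, from 9.56 ± 2.08 CPM to 19.5 ± 4.36 CPM. The log2 fold changes were 8.69 (SE 0.27, adjusted p = 1.84e-09) for Il1a, 10.28 (SE 0.38, adjusted p = 4.58e-09) for Il1b and 1.05 (SE 0.19, adjusted p = 0.000742) for Il18 (edgeR quasi-likelihood test, Benjamini-Hochberg adjustment over all genes tested). The antagonist Il1rn and the binding protein Il18bp had smaller values, 0.59 (SE 0.14, adjusted p = 0.00568) and 0.89 (SE 0.14, adjusted p = 0.000319), which passed the adjusted p of 0.05 but not the fold threshold of 1 on the log2 scale that a call also needed. Of the 5 members that reached 10 TPM in this comparison 3 were called, against 14.7% of the 8200 genes tested. Il1a and Il1b passed the filter only through the treated cultures, so that they had to differ, and no support is drawn from the count. Il1rap and Il1r2 were read from a fit without the filter, in which 9.05% of 26147 genes were called. There Il1rap was −0.99 (SE 0.15, adjusted p = 5.31e-05), just short of the fold threshold, and Il1r2 0.10 (95% CI −1.04 to 1.24, adjusted p = 0.938). The call of Il18 lay close to the threshold: without replicate 4 of the controls or of the VWF-treated cultures it was 0.91 and 0.92. Il1rap in turn passed the fold threshold without Control 3.5 h replicate 1 (−1.01), Control 3.5 h replicate 3 (−1.12) or VWF 3.5 h replicate 5 (−1.11). In bulk RNA, fewer cells of a kind and less RNA per cell cannot be told apart.

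At 16 h the pattern of VWF was another one, with Il1b still raised, Il18bp raised and Il1rn lowered. Il1b was at 14.6 ± 3.87 CPM (SD, n = 5) against 2.65 ± 2.30 CPM (SD, n = 5), a log2 fold change of 2.45 (SE 0.49, adjusted p = 0.00362). Il18bp was at 32.1 ± 7.80 CPM against 5.25 ± 1.11 CPM, a log2 fold change of 2.60 (SE 0.22, adjusted p = 1.07e-05). Il1rn was at 252 ± 71.4 CPM against 713 ± 190.0 CPM, a log2 fold change of −1.51 (SE 0.25, adjusted p = 0.00107) or 2.85-fold lower. Il18 had −0.19 (95% CI −0.51 to 0.14, adjusted p = 0.408). Of the 4 members tested 3 were called, against 8.71% of 7798 genes, and Il18bp passed the filter only through the VWF-treated cultures. Without the filter 5.21% of 26455 genes were called, and Il1a had 1.97 (95% CI 0.013 to 3.94, adjusted p = 0.227), Il1rap −0.34 (95% CI −0.91 to 0.23, adjusted p = 0.454) and Il1r2 −1.05 (95% CI −3.37 to 1.27, adjusted p = 0.571). The values of both IL-1 ligands were larger without replicate 4 of the controls at 16 h, 3.16 (adjusted p = 8.21e-05) for Il1b and 3.39 (adjusted p = 0.0101) for Il1a, which was then called. Without replicate 5 of the controls, the culture that stood apart, Il1rn had −1.54 (adjusted p = 0.000839), Il18bp 2.47 (adjusted p = 2.41e-06) and Il1rap −0.54 (adjusted p = 0.00939), the last still under the fold threshold.

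LPS raised the 3 ligands and both soluble antagonists at 3.5 h. Il1a reached 471 ± 144 CPM (SD, n = 4), Il1b 1316 ± 348 CPM, Il18 61.2 ± 10.03 CPM, Il1rn 3099 ± 412 CPM and Il18bp 35.2 ± 2.70 CPM. The log2 fold changes were 9.65 (SE 0.34), 10.48 (SE 0.34), 2.70 (SE 0.18), 2.25 (SE 0.13) and 1.91 (SE 0.13). Their adjusted p ran from 8.41e-10 for Il1b to 2.33e-07 for Il18. These 5 members were called, against 24.5% of 8190 genes, with Il1a and Il1b passing the filter only through LPS-treated cultures. In the fit without the filter, with 17.7% of 25626 genes called, Il1rap had 0.40 (95% CI 0.074 to 0.72, adjusted p = 0.0556) and Il1r2 1.14 (95% CI 0.0072 to 2.27, adjusted p = 0.121). Neither was called.

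After 16 h of LPS the antagonist genes were at their highest levels of the 6 groups. Il1rn rose from 713 ± 190.0 CPM to 13043 ± 1697 CPM (SD, n = 4), 18.8-fold, and Il18bp from 5.25 ± 1.11 CPM to 242 ± 24.5 CPM, 47.1-fold. The log2 fold changes were 4.23 (SE 0.23, adjusted p = 4.56e-07) and 5.56 (SE 0.19, adjusted p = 3.94e-08). The ligands were raised as well, Il1a by 8.60 (SE 1.05, adjusted p = 9.12e-05), Il1b by 8.82 (SE 0.64, adjusted p = 2.87e-06) and Il18 by 2.73 (SE 0.16, adjusted p = 7.66e-07) on the log2 scale. Again the 5 members tested were called, against 27.6% of 7994 genes, and Il1a and Il18bp passed the filter only through LPS-treated cultures. Without control replicate 4 the value was 9.97 for Il1a and 9.50 for Il1b. Without the filter, Il1r2 was higher with LPS at 2.69 (SE 0.90, adjusted p = 0.0451) and Il1rap had −0.10 (95% CI −0.79 to 0.59, adjusted p = 0.840), with 16% of 26410 genes called. The call of Il1r2 was lost when any of 8 of the 9 cultures was left out, with values from 2.39 to 3.09, and kept without Control 16 h replicate 5 at 2.36 (adjusted p = 0.0175).

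**Figure D2:**
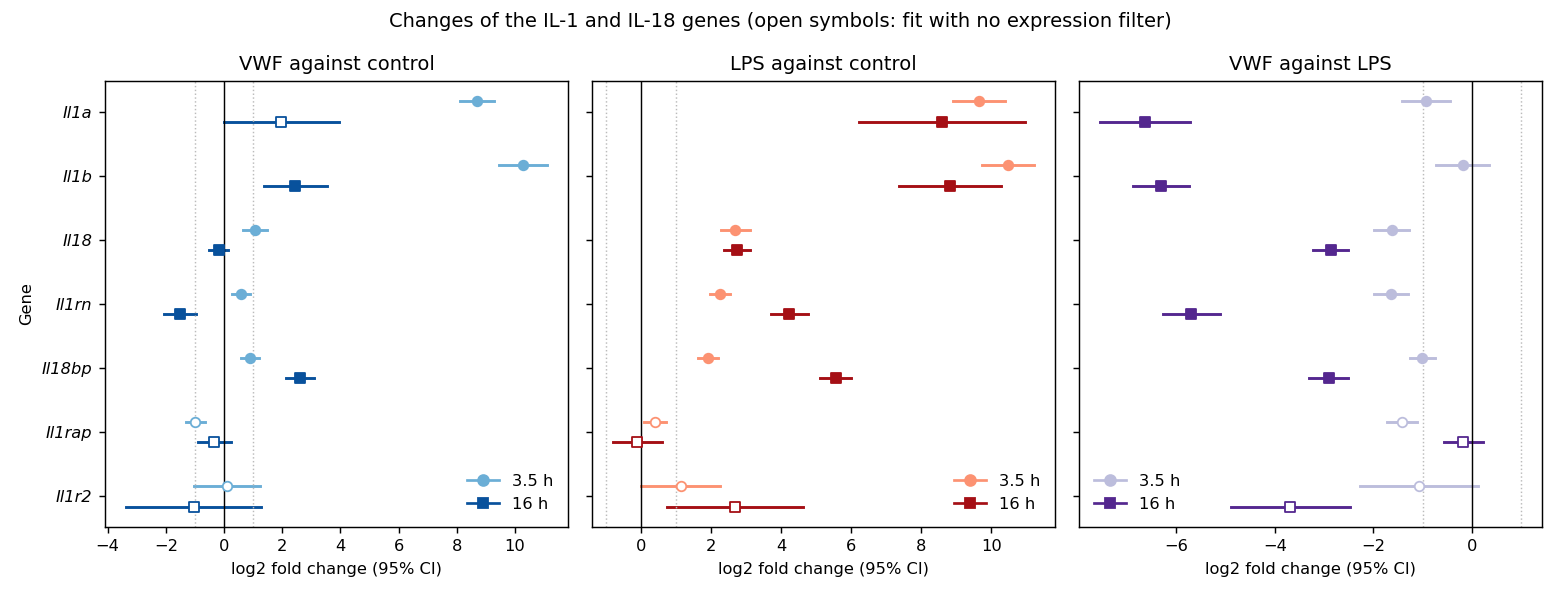
Log2 fold changes with 95% confidence intervals of the 7 genes (edgeR) for either stimulus against control and for one stimulus against the other, circles for 3.5 h and squares for 16 h, with dotted lines at the fold threshold and open symbols for the fit without the expression filter. Against control, VWF moved Il1b by 10.28 at 3.5 h and 2.45 at 16 h, LPS by 10.48 and 8.82.

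The 2 stimuli were then compared directly. At 3.5 h the level of Il1b with VWF and with LPS did not differ beyond the spread of the cultures, with a log2 difference of −0.19 (95% CI −0.72 to 0.35, adjusted p = 0.533) of VWF against LPS. Il1a was lower with VWF at −0.94 (SE 0.22, adjusted p = 0.00508), under the fold threshold. Il18, Il1rn and Il18bp were called lower with VWF than with LPS, at −1.63 (SE 0.16, adjusted p = 1.60e-05), −1.64 (SE 0.16, adjusted p = 1.17e-05) and −1.01 (SE 0.12, adjusted p = 4.77e-05). Of 5 members tested 3 were called, against 11.4% of 7500 genes. In the fit without the filter (7.69% of 25250 genes called) Il1rap was lower with VWF, at −1.42 (SE 0.15, adjusted p = 6.04e-08), and Il1r2 had −1.07 (95% CI −2.27 to 0.13, adjusted p = 0.216). The values of Il1a and Il18bp lay at the fold threshold. Without LPS 3.5 h replicate 1 or VWF 3.5 h replicate 5 Il1a was called (−1.14 and −1.04), and Il18bp was not called without LPS 3.5 h replicate 3, LPS 3.5 h replicate 4 or VWF 3.5 h replicate 1 (−0.98, −0.99 and −0.95).

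At 16 h all 5 members that reached 10 TPM were lower with VWF than with LPS. The log2 differences were −6.64 (SE 0.40, adjusted p = 5.88e-07) for Il1a, −6.31 (SE 0.25, adjusted p = 5.72e-08) for Il1b and −2.87 (SE 0.16, adjusted p = 3.55e-07) for Il18. For the antagonists they were −5.70 (SE 0.26, adjusted p = 9.44e-08) for Il1rn and −2.91 (SE 0.18, adjusted p = 5.99e-07) for Il18bp. In linear terms Il1b was 79.3-fold and Il1rn 51.8-fold lower with VWF, and no culture of either group overlapped with the other for these genes. Il1a reached 10 TPM at 16 h only in LPS-treated cultures and had to be lower with VWF, so that no support is drawn from the count. The background of calls was 25.5% of 7574 genes with the filter and 16.4% of 25896 without it. Without the filter Il1r2 was lower with VWF at −3.68 (SE 0.57, adjusted p = 0.000124) and Il1rap had −0.18 (95% CI −0.57 to 0.22, adjusted p = 0.477).

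In control cultures time alone gave a call for Il1b with the filter and for Il1rap without it. From 3.5 h to 16 h Il1b had a log2 change of 1.53 (SE 0.53, adjusted p = 0.0381), a call with overlapping groups that was the single one among 4 members tested, against 9.11% of 8333 genes. It was lost without any of Control 3.5 h replicates 1, 2, 3 or 5, and without Control 16 h replicate 4 Il1b was under the filter. Il18bp fell by 0.84 (SE 0.19, adjusted p = 0.00469) on the log2 scale without reaching the fold threshold, Il18 had 0.34 (95% CI −0.046 to 0.74, adjusted p = 0.138) and Il1rn 0.11 (95% CI −0.30 to 0.53, adjusted p = 0.643). Il1rap fell between the times at −1.33 (SE 0.29, adjusted p = 0.00686) in the fit without the filter (5.72% of 26653 genes called), where Il1a had −0.057 (95% CI −2.004 to 1.89, adjusted p = 0.972) and Il1r2 −0.73 (95% CI −2.59 to 1.13, adjusted p = 0.578).

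In VWF-treated cultures Il1a and Il1b fell from 3.5 h to 16 h by 6.77 (SE 0.29, adjusted p = 7.86e-09) and 6.27 (SE 0.31, adjusted p = 1.96e-08) on the log2 scale. These are decreases of 109-fold and 77.4-fold. Il1rn was also called lower at −1.96 (SE 0.22, adjusted p = 1.14e-05), while Il18 at −0.87 (SE 0.16, adjusted p = 0.000593) and Il18bp at 0.91 (SE 0.17, adjusted p = 0.000614) did not reach the fold threshold. Of 5 members 3 were called, against 21.4% of 7927 genes, but Il1a passed the filter only through the cultures of 3.5 h and had to differ. Without VWF 16 h replicate 5 Il18bp was called as higher (1.01). In the fit without the filter, with 15.2% of 26208 genes called, Il1rap had −0.65 (SE 0.14, adjusted p = 0.00101) and Il1r2 −1.88 (SE 0.69, adjusted p = 0.0446). The latter call rests on at most 14 counts per culture and was lost without any of 8 of the 10 cultures, the exceptions being replicate 1 of either time.

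In LPS-treated cultures Il1b and Il18 were not called between 3.5 h and 16 h, with changes of −0.15 (95% CI −0.60 to 0.30, adjusted p = 0.532) and 0.37 (95% CI 0.015 to 0.73, adjusted p = 0.0672), while the antagonists went on rising. Il1rn rose by 2.10 (SE 0.14, adjusted p = 3.45e-06) and Il18bp by 2.81 (SE 0.10, adjusted p = 2.15e-07) on the log2 scale. Il1a fell at −1.07 (SE 0.34, adjusted p = 0.0214), with overlapping groups. Without LPS 16 h replicate 4, a culture that stood apart, Il1a had −0.85 (adjusted p = 0.0138), and without LPS 3.5 h replicate 3, LPS 3.5 h replicate 4 or LPS 16 h replicate 2 it had −0.95 (adjusted p = 0.0577), −1.03 (adjusted p = 0.0520) and −1.01 (adjusted p = 0.0592), none of them a call. The 3 called members of 5 compare with 28.1% of 6987 genes. Il1rap, read without the filter (17.2% of 24940 genes called), fell at −1.84 (SE 0.20, adjusted p = 1.96e-06) and Il1r2 had 0.80 (95% CI −0.31 to 1.91, adjusted p = 0.275).

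Whether the response changed with time was tested by interaction terms, in which the change against control at 3.5 h is subtracted from that at 16 h. For VWF the terms were −6.76 (SE 0.84, adjusted p = 2.84e-06) for Il1a, −7.80 (SE 0.62, adjusted p = 9.04e-09) for Il1b and −1.22 (SE 0.24, adjusted p = 0.000538) for Il18. Il1rn had −2.08 (SE 0.30, adjusted p = 1.55e-05) and Il18bp, with the opposite sign, 1.73 (SE 0.25, adjusted p = 1.93e-05). All 5 were called, against 13.5% of 8660 genes, but Il1a passed the filter only through VWF at 3.5 h and had to differ. Without Control 16 h replicate 4 the terms of Il1a and Il1b were −5.39 and −7.08. For LPS the terms of Il1rn and Il18bp were positive, 2.01 (SE 0.26, adjusted p = 6.89e-06) and 3.66 (SE 0.22, adjusted p = 1.05e-09), and that of Il1b was negative at −1.65 (SE 0.60, adjusted p = 0.0317). Il1b was not called without Control 16 h replicate 4 (−0.96, adjusted p = 0.0577) nor without any of 7 other cultures, with adjusted p up to 0.0606. Il1a had −1.05 (95% CI −2.99 to 0.90, adjusted p = 0.365) and Il18 0.042 (95% CI −0.47 to 0.56, adjusted p = 0.902), so that 3 of 5 were called against 26.3% of 8748 genes.

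The difference between VWF and LPS changed with time in the 5 members that reached 10 TPM, against 25% of 8217 genes called. The terms were −5.71 (SE 0.45) for Il1a, −6.14 (SE 0.38) for Il1b, −1.26 (SE 0.24) for Il18, −4.08 (SE 0.29) for Il1rn and −1.92 (SE 0.21) for Il18bp. The largest adjusted p among them was 0.000267 for Il18. In fits without the filter Il1rap at 1.24 (SE 0.24, adjusted p = 0.000348) and Il1r2 at −2.61 (SE 0.80, adjusted p = 0.0203) were called for this term, where 12.5% of 28225 genes were. Without VWF 3.5 h replicate 4 the term of Il1r2 was −2.26 (adjusted p = 0.0535). Neither was called in the VWF term, where Il1rap had 0.66 (95% CI −0.0098 to 1.33, adjusted p = 0.243) and Il1r2 −1.16 (95% CI −3.41 to 1.09, adjusted p = 0.694) and 6.58% of 28918 genes were called. Nor were they in the LPS term, with −0.56 (95% CI −1.37 to 0.25, adjusted p = 0.401) and 1.48 (95% CI −0.62 to 3.57, adjusted p = 0.393), where 12.6% of 28670 genes were. The comparisons of a time share their control cultures, and their values are therefore given side by side without a correlation.

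Without replicate 5 of the controls at 16 h, the log2 fold changes of VWF against control at 16 h were 1.69 for Il1a, 2.39 for Il1b, −0.10 for Il18, −1.54 for Il1rn, 2.47 for Il18bp, −0.54 for Il1rap and −1.35 for Il1r2. Those of LPS against control at 16 h were 8.30 for Il1a, 8.75 for Il1b, 2.82 for Il18, 4.21 for Il1rn, 5.43 for Il18bp, −0.35 for Il1rap and 2.36 for Il1r2. No member gained or lost a call in either. From 3.5 h to 16 h in controls the values were 0.24 for Il1a, 1.59 for Il1b, 0.24 for Il18, 0.13 for Il1rn, −0.72 for Il18bp, −1.12 for Il1rap and −0.44 for Il1r2, where the uncalled value of Il1a turned sign. The VWF interaction had −7.03 for Il1a, −7.84 for Il1b, −1.12 for Il18, −2.09 for Il1rn, 1.62 for Il18bp, 0.50 for Il1rap and −1.41 for Il1r2, and the LPS interaction −1.33 for Il1a, −1.71 for Il1b, 0.13 for Il18, 1.99 for Il1rn, 3.53 for Il18bp, −0.77 for Il1rap and 1.19 for Il1r2. Calls stayed as they were, while the adjusted p of Il1rap in the LPS interaction came to 0.0443, with the value under the fold threshold.

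Without replicate 4 of the LPS-treated cultures at 16 h, LPS against control at 16 h had 8.81 for Il1a, 8.70 for Il1b, 2.62 for Il18, 4.15 for Il1rn, 5.61 for Il18bp, 0.063 for Il1rap and 2.73 for Il1r2. Il1r2 was then not called, and the uncalled value of Il1rap turned sign. VWF against LPS at 16 h had −6.86 for Il1a, −6.20 for Il1b, −2.77 for Il18, −5.62 for Il1rn, −2.97 for Il18bp, −0.33 for Il1rap and −3.72 for Il1r2, with no call gained or lost. From 3.5 h to 16 h with LPS the values were −0.85 for Il1a, −0.26 for Il1b, 0.26 for Il18, 2.02 for Il1rn, 2.86 for Il18bp, −1.66 for Il1rap and 0.85 for Il1r2, and only the call of Il1a was lost. The LPS interaction had −0.83 for Il1a, −1.77 for Il1b, −0.080 for Il18, 1.91 for Il1rn, 3.71 for Il18bp, −0.40 for Il1rap and 1.51 for Il1r2, with a turned sign for the uncalled Il18. The term for VWF against LPS by time had −5.93 for Il1a, −6.02 for Il1b, −1.14 for Il18, −3.99 for Il1rn, −1.97 for Il18bp, 1.09 for Il1rap and −2.64 for Il1r2, with its calls as before.

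Levels of different genes were compared in TPM. In controls Il1rn stood at 389 ± 72.1 TPM (SD, n = 5) at 3.5 h and Il1b at 1.57 ± 0.722 TPM, so that transcripts of the antagonist exceeded those of the ligand 262-fold on the mean of log2 ratios within a culture. With VWF at 3.5 h the order was turned, with Il1b at 1643 ± 385 TPM and Il1rn at 492 ± 71.8 TPM. The log2 ratio of Il1b to Il1rn was 1.52, 1.66, 2.07, 1.77 and 1.57 in the 5 cultures, a ligand excess of 3.29-fold. With LPS at 3.5 h the ratio was 0.093, 0.050, 0.58 and 0.37, below each VWF-treated culture and close to parity. At 16 h the antagonist was ahead in all groups, at −2.56 ± 0.25 with VWF and −1.96 ± 0.12 with LPS, against −6.81 ± 1.22 in controls. These 2 ratios were reached at very different levels, since at 16 h Il1b and Il1rn stood at 21.3 ± 6.32 TPM and 125 ± 28.96 TPM with VWF and at 1255 ± 97.98 TPM and 4861 ± 153 TPM with LPS. TPM divides by the merged length of all exons of a gene, 5535 bases for Il1rn and 1907 bases for Il1b. In CPM, without this division, Il1b and Il1rn had means of 1139.7 and 982 with VWF at 3.5 h. Replicate 1 had 687 and 695 CPM. With LPS at 3.5 h the means were 1316 and 3099 CPM. The size of the ligand excess with VWF and the near parity with LPS thus depend on these lengths. The ratios are descriptions without a test.

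Transcripts of Il18 exceeded those of its binding protein in controls, with a log2 ratio of 1.55 ± 0.42 at 3.5 h and 2.77 ± 0.56 at 16 h. The early ratio was 1.72 ± 0.17 with VWF and 2.34 ± 0.19 with LPS. At 16 h it had come to −0.023 ± 0.33 with VWF and −0.092 ± 0.34 with LPS, near parity in both, and no treated culture at 16 h reached the range of the controls. In VWF-treated cultures this was a ratio of 28.4 ± 3.42 TPM to 29.2 ± 5.53 TPM, and in LPS-treated cultures of 155 ± 8.64 TPM to 167 ± 30.3 TPM. These ratios depend on the merged exon lengths as well, 1031 bases for Il18 and 3026 bases for Il18bp. Of the 2 IL-1 ligands Il1b was the more abundant per length in every group, with a log2 ratio of Il1a to Il1b of −2.25 ± 0.34 with VWF and −1.56 ± 0.32 with LPS at 3.5 h. In controls at 16 h this ratio ran from −7.82 to −1.74, where the lowest value comes from the culture with 0 counts of Il1a and depends on the 0.5 counts added before division. Il1rap exceeded Il1r2 in each group, by 4.55 ± 0.50 in controls at 3.5 h and least in LPS-treated cultures at 16 h, by 1.09 ± 0.36.

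**Figure D3:**
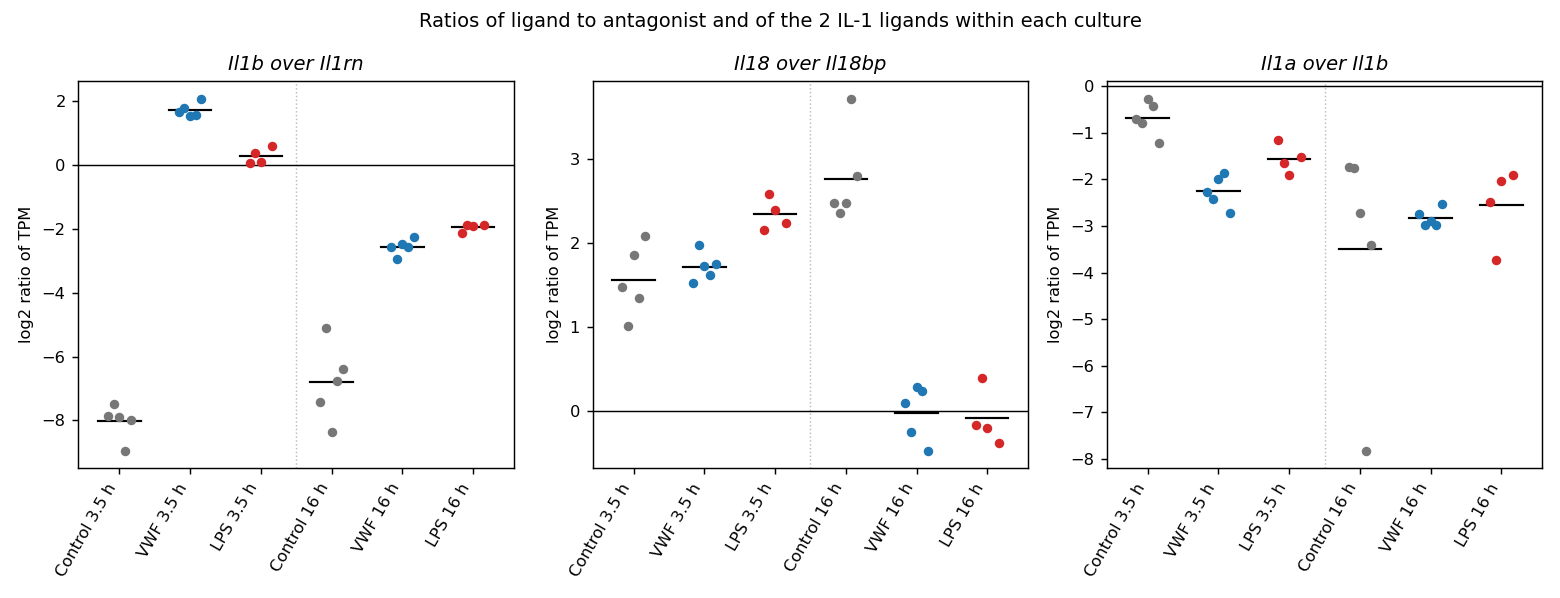
Log2 ratios of TPM within each of 28 cultures for Il1b over Il1rn, Il18 over Il18bp and Il1a over Il1b, by group, with points for cultures, black lines for group means and a horizontal line at equal levels. Per exon length, Il1b exceeded Il1rn with either stimulus at 3.5 h, with means of 1.72 and 0.27, and Il18 lost its lead over Il18bp at 16 h with either stimulus.

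The order of the 6 groups differed between the members. Il1a was highest with LPS at 3.5 h, followed by VWF at 3.5 h and LPS at 16 h, and these neighbours overlapped. For Il1b the groups LPS at 3.5 h, LPS at 16 h and VWF at 3.5 h overlapped at the top and were separate from VWF at 16 h, which was separate from the controls. Il18 was highest with LPS at 16 h and 3.5 h, which overlapped, then with VWF at 3.5 h, and its lowest 3 groups, the controls and VWF at 16 h, overlapped. Il1rn ran from LPS at 16 h and LPS at 3.5 h, each separate from the next, through VWF at 3.5 h and both controls, which overlapped, to VWF at 16 h as the lowest. Il18bp ran from LPS at 16 h through LPS at 3.5 h and VWF at 16 h, which overlapped, to VWF at 3.5 h and the controls of 3.5 h and 16 h, each separate. Il1rap had its highest levels at 3.5 h in LPS-treated and control cultures, which overlapped.

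Likeness across all 28 cultures was described by the Pearson correlation of log2 CPM with each of 8866 other genes that reached 10 TPM. All points share the 6 groups, so that a high value says mainly that 2 genes follow the same order of groups, and no p is given. Il1a was most like Socs3 (0.981), Gbp5 (0.980) and Il6 (0.979), and Il1b most like Traf1 (0.992), Batf (0.988) and Adora2a (0.986). Il18 was most like Prpf38a (0.983), Pou3f1 (0.967) and Upp1 (0.966). Il1rn was most like Srgn (0.959), Rgl1 (0.952) and Slc15a3 (0.951), and Il18bp most like Lgals9 (0.981), H2-K1 (0.981) and B2m (0.975). By Spearman's rho 4 of these 15 genes stayed among the closest 3, and 2 did after subtraction of the group means. H2-K1 and B2m encode the chains of a class I histocompatibility molecule. Among the members themselves, Il1a and Il1b had 0.969, Il18 and Il1rn 0.902 and Il1b and Il1rn 0.645. After subtraction of the group means Il1a and Il1b had 0.575, Il18 and Il1rn 0.239 and Il1b and Il1rn 0.289. The highest of these values was 0.627 for Il1a and Il18bp and the lowest −0.292 for Il1a and Il18.

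Beyond the 7 genes, 41 other genes of the IL-1 pathway were listed by role, as 6 other ligands, 8 receptors, 14 signaling genes and 13 genes of maturation and release. With VWF at 3.5 h, 24 of the 41 reached the filter, and 10 of these were called higher and none lower by the edgeR test, against 14.7% of all genes tested, with a median log2 fold change of 0.47 over the 24 and 0.0015 over all genes. The 10 were 5 of 12 signaling genes, led by Irak3 at 2.74 (SE 0.17, adjusted p = 1.93e-07) and Peli1 at 2.73 (SE 0.085, adjusted p = 1.84e-09), and 5 of 12 genes of maturation and release, led by Mefv at 4.71 (SE 0.25, adjusted p = 5.23e-08) and Nlrp3 at 3.15 (SE 0.26, adjusted p = 1.69e-06). Nlrp3 and Mefv encode inflammasome sensors, Irak3 a kinase homologue that restrains MyD88 signaling and Peli1 a ubiquitin ligase of that pathway. A listed gene that reached the filter only in treated cultures had to differ. With VWF at 16 h 2 of 22 were called higher, a share near that of all genes (8.71%), with medians of 0.075 and −0.030. They were Irak3 at 1.85 (SE 0.17, adjusted p = 2.18e-05) and Mefv at 3.99 (SE 0.67, adjusted p = 0.00119). Casp1, the protease that cleaves pro-IL-1β and pro-IL-18, had 1.30 (SE 0.090, adjusted p = 3.14e-07) at 3.5 h and 0.56 (SE 0.12, adjusted p = 0.00619) at 16 h, and Casp4, the sensor of intracellular LPS, 2.63 (SE 0.10, adjusted p = 4.72e-09) and 0.91 (SE 0.19, adjusted p = 0.00420). Nlrp3 at 16 h had −0.52 (SE 0.32, adjusted p = 0.291).

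With LPS, 11 of 25 listed genes were called higher and 1 lower at 3.5 h (median 0.72), where 24.5% of all genes were called (median −0.017). At 16 h 14 of 25 were called higher (median 1.61), where 27.6% of all genes were called (median −0.029). Mefv at both times, Il33 at 3.5 h and Il1f6 and Il1f9 at 16 h reached the filter only in LPS-treated cultures. They had to differ, and no support is drawn from these counts. At 3.5 h Peli1 had 3.78 (SE 0.085, adjusted p = 1.05e-10) and the adaptor gene Myd88 2.62 (SE 0.10, adjusted p = 1.83e-09), Casp4 had 3.47 (SE 0.10, adjusted p = 2.71e-10) and Mefv 3.40 (SE 0.26, adjusted p = 6.73e-07). The single gene called lower was Tab1, named after its value was seen, at −1.42 (SE 0.11, adjusted p = 7.14e-07). At 16 h Irak3 had 2.41 (SE 0.17, adjusted p = 2.27e-06), Peli1 2.22 (SE 0.26, adjusted p = 6.47e-05), Mefv 5.78 (SE 0.71, adjusted p = 9.65e-05) and Casp4 3.90 (SE 0.23, adjusted p = 6.49e-07). Casp1 had 2.45 (SE 0.10, adjusted p = 3.46e-09) at 3.5 h and 3.12 (SE 0.14, adjusted p = 1.17e-07) at 16 h, and Nlrp3 1.48 (SE 0.23, adjusted p = 0.000164) and 1.61 (SE 0.40, adjusted p = 0.00679). Nlrp3 was higher with VWF than with LPS at 3.5 h, at 416 to 786 CPM against 138 to 238 CPM with a log2 difference of 1.69 (SE 0.23, adjusted p = 0.00014). Casp1 differed in the other direction at −1.13 (SE 0.11, adjusted p = 1.29e-05), and Casp4 at −0.82 (SE 0.10, adjusted p = 6.30e-05) was under the fold threshold.

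Of other ligands of the family, Il33, Il1f6 and Il1f9 had their highest mean levels with LPS and were also found with VWF. Il33 had 0 counts in the 5 controls at 3.5 h, which allows a level of up to 0.0101 CPM over the group, and 21.7 ± 4.61 CPM (SD, n = 4) with LPS at 3.5 h, at least 2143-fold higher than that floor. With VWF at 3.5 h it had 0.882 ± 0.366 CPM, at least 82.8-fold higher than the floor, and at 16 h 0.739 ± 0.168 CPM with LPS. Il1f6, the gene of IL-36α, was at 7.55 ± 0.376 CPM with LPS at 16 h, where the controls held at most 6 counts, and Il1f9, the gene of IL-36γ, at 8.61 ± 0.395 CPM against 0.165 ± 0.158 CPM. With VWF Il1f6 held 5 to 9 counts per culture at 3.5 h, where the controls held 0 and LPS-treated cultures 0 to 18. At 16 h it held 6 to 28 counts with VWF. Il1f9 with VWF was at 0.913 ± 0.163 CPM at 3.5 h, where LPS gave 0.861 ± 0.386 CPM and controls 0.0963 ± 0.0468 CPM. It was at 0.927 ± 0.475 CPM with VWF at 16 h. None of the 8 listed receptor genes reached 10 TPM. Il1r1, the signaling receptor for both IL-1 ligands, was highest with LPS at 3.5 h at 3.88 ± 1.23 CPM, against 2.13 ± 0.717 CPM with VWF and 1.15 ± 0.417 CPM in controls. At 16 h it was at 2.83 ± 0.449 CPM with LPS, 0.490 ± 0.126 CPM with VWF and 0.353 ± 0.227 CPM in controls. Il18r1 had at most 6 counts in any culture and Il18rap, its partner, at most 155. At 3.5 h Il18rap was at 3.72 ± 0.258 CPM with LPS, 0.770 ± 0.200 CPM with VWF and 0.619 ± 0.295 CPM in controls. At 16 h it was at 0.669 ± 0.338 CPM, 0.229 ± 0.106 CPM and 1.80 ± 0.420 CPM in the same order. Il1rl1, the receptor of IL-33, was at 4.28 ± 1.01 CPM in controls and 0.669 ± 0.435 CPM with VWF at 16 h. With LPS it was at 2.61 ± 1.69 CPM at 16 h, with a range that overlapped with the controls.

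**Figure D4:**
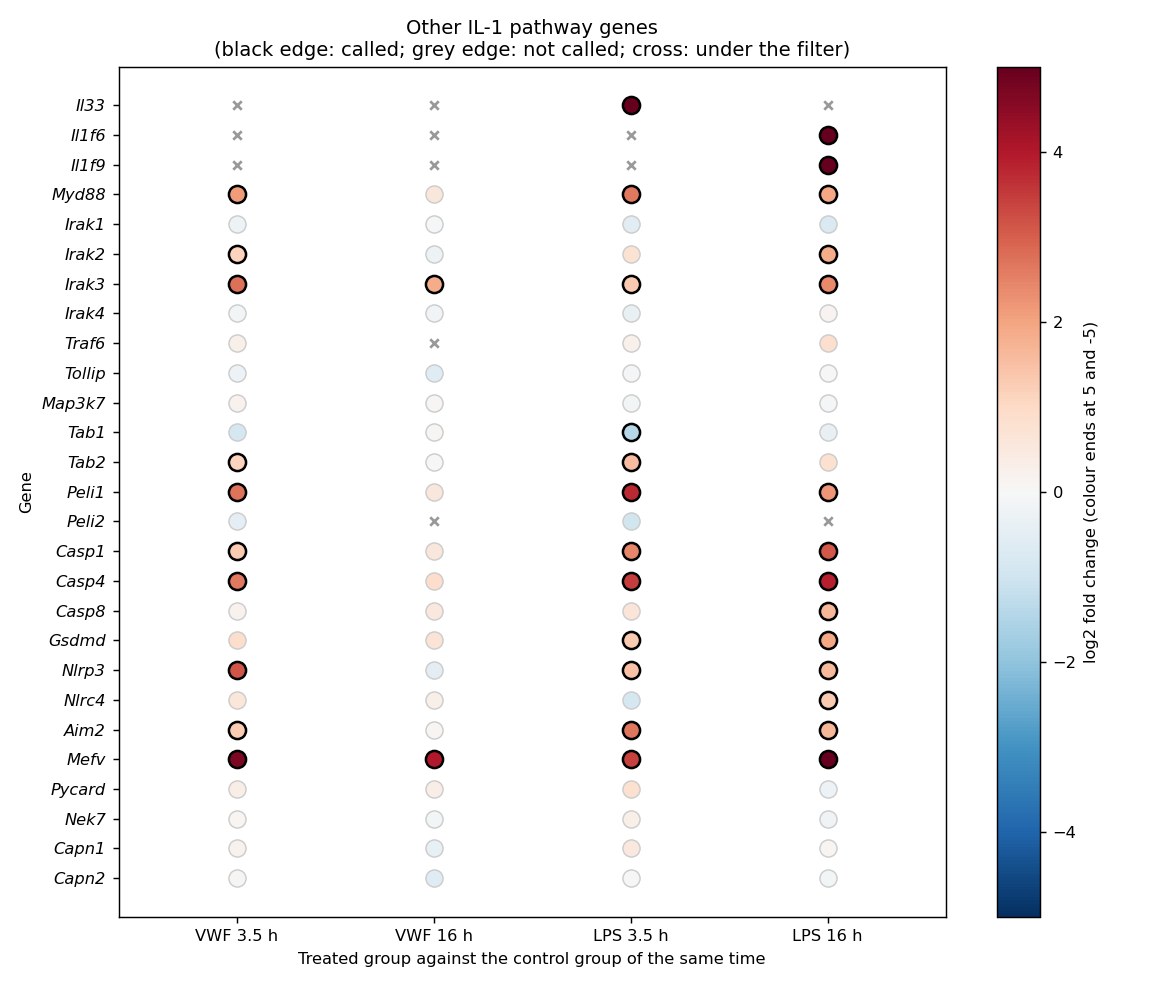
Log2 fold changes (colour, ended at 5 and −5) of the listed IL-1 pathway genes that reached the filter, for VWF and LPS against control at 3.5 h and 16 h, with black edges for calls, grey edges for no call and crosses for genes under the filter. With VWF 10 genes were called at 3.5 h and 2 at 16 h, with Mefv, which reached the filter only in treated cultures, among them at both times. The colour of Il33 with LPS, whose controls were at 0 counts, marks only that it was higher.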

How the data were processed

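STAR was used by the authors for mapping (paired ends, 150 bases, GRCm38) and for the deposited raw counts of reads per Ensembl gene, with 1 column per culture. For the version of STAR, the annotation release and the strand setting, nothing is given in the sources read. Groups were taken from the sample labels. Exon lengths, with all exons of a gene merged, and symbols came from GENCODE M21. Counts were tested with edgeR 4.0.16 in R 4.3.3 (robust quasi-likelihood test, TMM factors) in 12 comparisons, each on its own groups. Genes had to reach 10 TPM in at least 1 culture of a comparison, as in the methods of the study, and a call needed a Benjamini-Hochberg adjusted p below 0.05 and a log2 fold change beyond 1 in either direction. Members under this filter were read from a fit of all genes with a count. SE is the log2 fold change divided by the root of F. Intervals in counts cover counting error only. Log2 CPM for correlations used a prior count of 2, and ratios had 0.5 counts added. Fits were tested on simulated counts.

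All 7 members were named in every comparison. Of the pathway list the 2 largest changes per role among called genes were named, with Il1r1, Il1rl1, Il18r1, Il18rap, Casp1, Casp4 and Nlrp3. Members and lists were chosen with earlier results of these data known. Replicate numbers run across groups. Same-numbered cultures deviated together in every pair only for VWF versus LPS at 16 h, with correlations from 0.20 to 0.81 over 4 pairs. Cultures of different numbers were not compared in this way, so that these values cannot show that a number marks a pair. The labels do not say what a number shares. Alternatives were DESeq2 1.42.0, other scaling factors, other filters, 1 fit of all 6 groups, a replicate block and leaving out each culture. Counts that were no different within sampling noise were not found among replicates. Protein sequences were not analysed here.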

Additional observations from a re-analysis of the deposited data

Results flagged for a closer look

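Of 42 groups of 4 or 5 cultures tested for a value far from the rest by Dixon's test, 5 had one. Chance flags about 1 in 20 groups when values are normal and groups are independent. The members were measured in the same cultures and some had few counts, so that the 5 values are not set against this rate. In controls at 16 h, replicate 4 held 2.07 CPM of Il1a and 6.71 CPM of Il1b, the highest of the group for both. Replicate 5 of the same group held 3.33 CPM of Il18bp, the lowest. Replicate 5 of the VWF-treated cultures at 3.5 h held 13.5 CPM of Il1rap, and replicate 1 of the LPS-treated cultures at 16 h held 0.736 CPM of Il1r2, the highest in each case.

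The interaction term of edgeR, which sets a contrast at 16 h against that at 3.5 h, was called in 15 cases. With the filter, 13.5% of all genes were called for VWF, 26.3% for LPS and 25% for VWF against LPS. Without the filter, 12.5% were called for VWF against LPS. Il1a in the VWF term passed the filter only through VWF at 3.5 h and had to differ. The calls of Il1b for LPS and of Il1r2 were lost in some fits that left out 1 culture. For VWF against control the log2 terms were −6.76 for Il1a, −7.80 for Il1b, −1.22 for Il18, −2.08 for Il1rn and 1.73 for Il18bp. For LPS against control they were −1.65 for Il1b, 2.01 for Il1rn and 3.66 for Il18bp. For the difference between VWF and LPS they were −5.71 for Il1a, −6.14 for Il1b, −1.26 for Il18, −4.08 for Il1rn and −1.92 for Il18bp, and, without the filter, 1.24 for Il1rap and −2.61 for Il1r2.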

How the results depend on the processing

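DESeq2 and median-of-ratios factors left the direction and call of all 84 member values as they were. Scaling by library size only shifted the median log2 fold change of all genes to −0.22 for VWF and −0.54 for LPS against control at 3.5 h, −0.57 for LPS against control at 16 h, and 0.30 and 0.44 for VWF against LPS at 3.5 h and 16 h, relative to which member values are to be read. It gave 612 higher and 643 lower calls in place of 753 and 453 for VWF against control at 3.5 h, 708 higher and 2157 lower calls in place of 1047 and 963 for LPS at 3.5 h and 793 higher and 2253 lower calls in place of 1221 and 989 at 16 h, 751 higher and 340 lower calls in place of 353 and 503 for VWF against LPS at 3.5 h and 1726 higher and 700 lower calls in place of 837 and 1095 at 16 h. For the VWF interaction it gave 612 and 570 in place of 474 and 697 and for VWF against LPS by time 1172 and 898 in place of 879 and 1173. Shares of higher calls moved by under 10 percentage points in VWF against control at 16 h (329 and 356 in place of 355 and 324), the LPS interaction (1082 and 1201 in place of 1177 and 1124) and controls (286 and 435 in place of 343 and 416), VWF (850 and 867 in place of 725 and 971) and LPS (938 and 1043 in place of 1022 and 942) by time. In 5 cases an uncalled value turned sign there: Il1r2 −0.20 for VWF and Il1rap −0.17 for LPS against control at 3.5 h, Il1b 0.0960 for VWF against LPS at 3.5 h, Il1rap 0.27 for that contrast at 16 h, and Il1a 0.00257 for control by time. Il18 (0.83, VWF against control at 3.5 h), Il18bp (−0.72, VWF against LPS at 3.5 h) and Il1r2 in LPS against control at 16 h (2.03, adjusted p = 0.118) and VWF by time (−1.72, adjusted p = 0.0634) were no longer called, and Il1rap was (−1.26, VWF against control at 3.5 h).

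Counts of calls over all genes rose with looser filters, under which more genes were tested. With filterByExpr and with no filter they were 2099 and 2366 for VWF against control at 3.5 h (1206 at 10 TPM) and 1362 and 1378 (679) at 16 h. For LPS against control they were 3917 and 4542 (2010) and 4087 and 4224 (2210), and for VWF against LPS 1776 and 1942 (856) and 3897 and 4242 (1932). Over time they were 1565 and 1524 (759) in controls, 3458 and 3974 (1696) with VWF and 4116 and 4298 (1964) with LPS. The interactions had 1972 and 1904 (1171) for VWF, 3790 and 3613 (2301) for LPS, and 3576 and 3528 (2052) for VWF against LPS. Members called with filterByExpr were 5 in place of 3 for VWF against LPS at 3.5 h, where Il1a passed the fold threshold narrowly and Il1rap was then tested, and 2 in place of 1 for control by time. Without the filter Il1b was no longer called in control by time (1.47, adjusted p = 0.0542) or the LPS interaction (−1.70, adjusted p = 0.0745). In 1 fit of all 6 groups Il1a was called in VWF against control at 16 h (2.02, adjusted p = 0.0172) but not in LPS by time (−1.09, adjusted p = 0.0668), and the third interaction of Il1r2 was lost (−2.63, adjusted p = 0.0609).

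With a replicate block, 82 of 84 member values kept their call, the exceptions being Il18bp in VWF against LPS at 3.5 h (−0.999, adjusted p = 0.000504) and Il1r2 in VWF by time (−1.90, adjusted p = 0.0908). In neither did all pairs deviate together.

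Leaving out 1 culture at a time kept 919 of 979 member values in direction and call. Values that turned sign ranged from −0.26 to 0.33 for Il1r2 in VWF against control at 3.5 h, −0.35 to 0.075 for Il1rap in LPS against control at 16 h, −0.013 to 0.25 for Il1rn and −1.50 to 0.24 for Il1a in control by time, and −1.33 to 0.31 for Il1a and −0.080 to 0.16 for Il18 in the LPS interaction. The count of called members in control by time was 0 to 1. The ratios moved by less than the spread of cultures with 0.1 or 2 counts added. Except where a filter sets the number of genes tested, the cause was not tested.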
